A study of Danio rerio with 2 samples.

Results

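Collagen genes were examined in zebrafish larvae homozygous for the lri12 mutation and in their wild-type siblings. A gene was taken as a collagen when its symbol in the deposited table read col, a number, the letter a and a digit. The symbol rule found 60 loci of 40114 in the table. Of these, 2 carry the symbols COL4A3BP (1 of 2) and col4a3bpa, which name a ceramide transfer protein and not a collagen chain. The remaining 58 collagen loci, of 22 collagen types, are described here. The mutant group was 1 RNA library from a pool of 20 whole homozygous larvae at 5 days post-fertilization (dpf). The wild-type group was 1 library from a pool of 20 whole clutch-mates of the same age. The pools were raised alike, and which gene carries the lri12 mutation is not stated in the labels. With 1 pool per genotype no difference has a replicate check, no test was possible, and differences are described by their size only. In whole bodies, fewer cells of a type and less RNA per cell cannot be told apart.

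Collagens are extracellular proteins built from chains that wind around each other as a triple helix of repeated glycine-containing triplets. Fibrillar collagens form the cables of skin, tendon, bone and cartilage, and network collagens such as type IV form the sheets of basement membranes. Collagens of the FACIT class, which have interrupted helices, decorate fibrils, and transmembrane collagens anchor cells. In zebrafish larvae they are made by basal skin cells, fibroblasts, chondrocytes and the notochord, whose sheath is rich in type II collagen.

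The collagen transcripts as a family stood at nearly the same level in both pools. Levels are in FPKM, a unit that corrects fragment numbers for the length of the transcript and the size of the library, so that genes can be compared with each other. Summed over the 57 collagen loci with an estimate, the level was 2165 FPKM in the mutant and 2167 FPKM in wild type, 0.235% and 0.242% of the summed FPKM of all loci with an estimate. Of the 58 loci, 51 averaged 1 FPKM or more across the pools and entered the comparison. A further 6 were below this level, and 1, col9a2, was marked as a failed estimate by the authors' program. A difference here is the log2 of mutant FPKM plus 1 divided by wild-type FPKM plus 1. Folds are on that scale too, which makes low genes look more alike than they are. On this scale 2 collagen genes were higher in the mutant by 1.2-fold or more, 5 were lower by that much, and 44 lay between. Among all 18664 entering genes, 5.9% were higher and 7.39% lower by 1.2-fold or more. The share of collagens between these limits, 86.3%, was near that of all genes, 86.7%. None of the 51 was past 2-fold, a size that 0.729% of all genes passed. The median difference was -0.02 over the collagens and 0.004 over all genes. Of the 51 collagens, 21 lay above 0 and 30 below, against 9580 above and 9084 below among all genes.

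**Figure D1:**
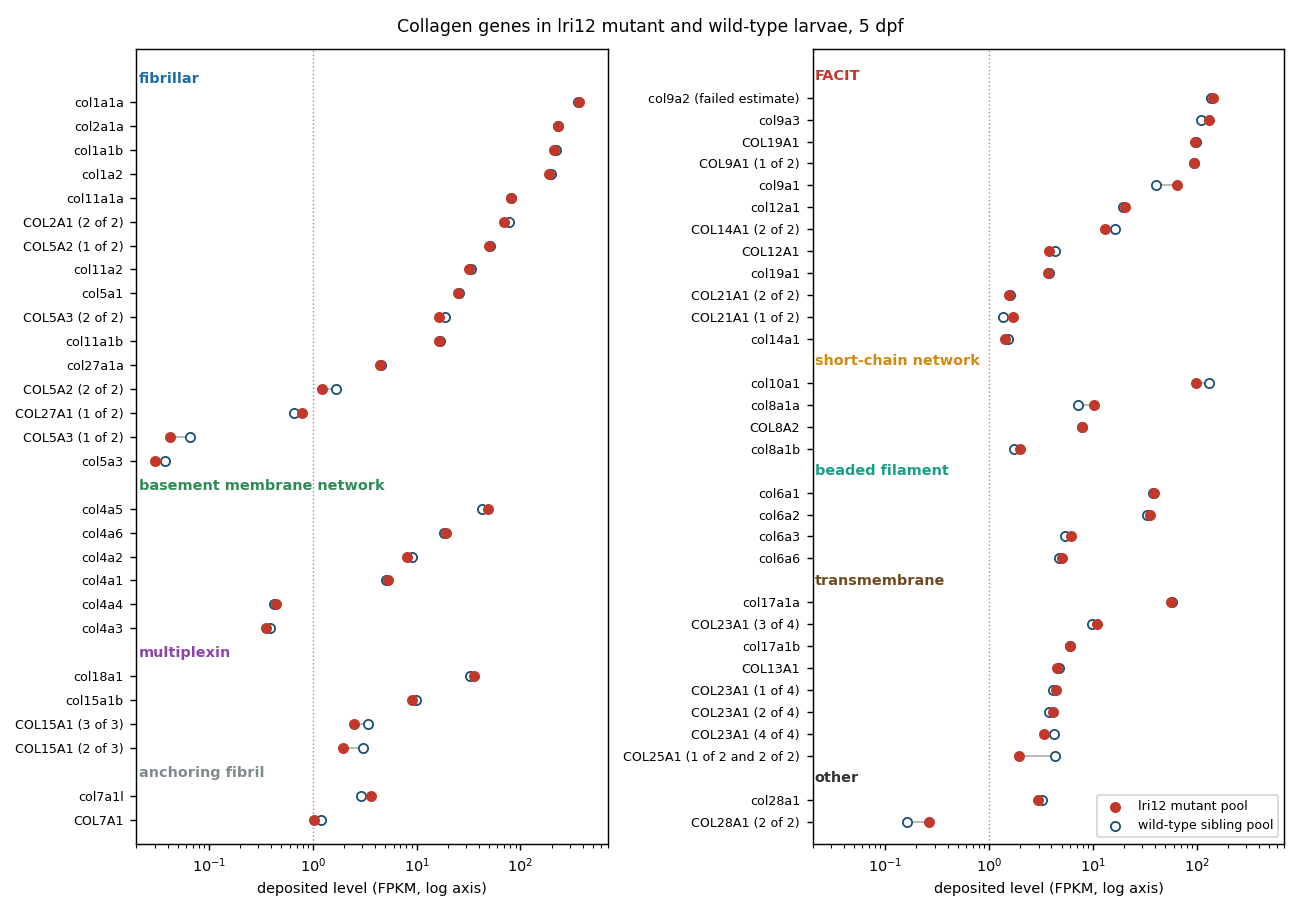
Deposited level of each of the 58 collagen loci in the mutant pool (filled red) and the wild-type pool (open blue), in FPKM on a log axis, ordered by structural class and mean level. Points of the pair mostly overlap, as for col1a1a at 366 and 359.9 FPKM, and the widest gap above 10 FPKM is at col9a1; the dotted line marks 1 FPKM.

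The order of levels was much the same in the pools, and the 4 highest genes held the same ranks in each. The gene col1a1a, which encodes an alpha-1 chain of type I collagen, was the highest at 366 FPKM in the mutant and 359.9 FPKM in wild type. Next came col2a1a, the alpha-1 chain of type II collagen of cartilage and notochord sheath, at 232 FPKM in the mutant and 231 FPKM in wild type. Its deposited span is shared with 7 other gene models, and 24 of the 58 collagen loci overlap another model. How reads were assigned in such spans is not stated. The other type I chains followed. The copy col1a1b stood at 213 FPKM in the mutant and 220.1 FPKM in wild type. The alpha-2 chain gene col1a2 stood at 188 FPKM in the mutant and 196 FPKM in wild type. The failed estimate of col9a2, a type IX chain, is listed at 143 FPKM in the mutant and 138 FPKM in wild type, and takes no part in any count. The 6 highest loci with an estimate, those averaging 100 FPKM or more, held 56.8% of the collagen sum in the mutant and 57.6% in wild type.

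Fibrillar collagens stayed close together in the pools, with a median absolute difference of 0.04. It was 0.09 over all entering collagens and 0.07 over the 32 that averaged 5 FPKM or more. The part of expression level in this was not tested. Of the 16 fibrillar loci, 13 entered, all 13 within 1.2-fold, with a median of -0.04. Below 0 lay 11 of the 13, beside 9084 of all 18664 entering genes. The sum of the fibrillar genes was 1296 FPKM in the mutant and 1317 FPKM in wild type. The differences ran from -0.26 to 0.03. The lowest was COL5A2 (2 of 2), a low copy of a type V chain that regulates the width of type I fibrils, at 1.23 FPKM in the mutant and 1.68 FPKM in wild type, just inside the limit at 1.199-fold. Its abundant copy COL5A2 (1 of 2) stood at 50.0 FPKM in the mutant and 50.6 FPKM in wild type. The partner chain col5a1 stood at 25.1 FPKM in the mutant and 25.9 FPKM in wild type. Another type V chain, COL5A3 (2 of 2), was lower at 16.4 FPKM in the mutant and 18.6 FPKM in wild type, a difference of -0.18. The other loci of that chain, COL5A3 (1 of 2) and col5a3, were under 0.1 FPKM in both pools, as far as the deposited estimates show. The second type II gene, COL2A1 (2 of 2), stood at 69.7 FPKM in the mutant and 77.0 FPKM in wild type, a difference of -0.14. Type XI chains, which nucleate cartilage fibrils, ranged from -0.09 for col11a2 to -0.01 for col11a1a, which stood at 80.9 FPKM in the mutant and 81.1 FPKM in wild type.

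Type IX collagen, the FACIT collagen that coats type II fibrils in cartilage, held the member furthest above 0. The gene col9a1 (chromosome 13, 39679468 to 39719819, build Zv9) stood at 65.3 FPKM in the mutant and 40.3 FPKM in wild type, 1.60-fold higher. Of the 10969 genes that averaged 5 FPKM or more, 69 were at least as far above 0. In the RefSeq gene table of assembly GRCz12tu the symbol is an older name of both col9a1b on chromosome 13 and col22a1 on chromosome 19. The locus was read as col9a1b by place only, since in both tables it lies on chromosome 13 between col19a1 and fam135a. Its duplicate COL9A1 (1 of 2) on chromosome 11 did not share the difference, at 93.5 FPKM in the mutant and 95.0 FPKM in wild type. The alpha-3 chain gene col9a3 (chromosome 23, 511729 to 540996) was 1.19-fold higher, at 131 FPKM in the mutant and 110.0 FPKM in wild type, just short of the 1.2-fold limit. The duplicated alpha-1 genes thus stood in a ratio of 1.43 in the mutant and 2.36 in wild type, chromosome 11 copy over chromosome 13 copy. The summed alpha-1 level over col9a3, in contrast, was 1.21 in the mutant and 1.23 in wild type. The neighbour col19a1, which ends 3495 bases before the start of col9a1, stood at 3.74 FPKM in the mutant and 3.79 FPKM in wild type.

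**Figure D2:**
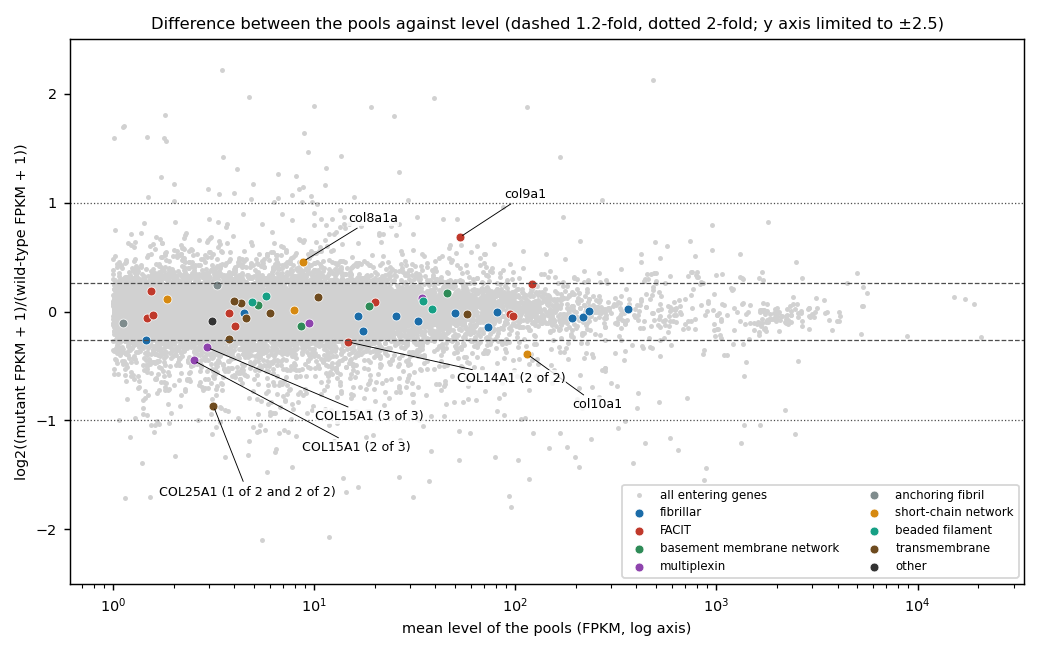
Difference between the pools (y axis, log2 scale with 1 FPKM added) against mean level (x axis, FPKM on a log axis) for all 18664 entering genes (grey) and the 51 entering collagen genes (coloured by structural class); grey genes beyond the drawn y range are not shown. The 7 collagen genes outside the dashed 1.2-fold lines are named; col9a1 at 0.68 and the joined COL25A1 locus at -0.87 are furthest from 0, and no collagen gene passes the dotted 2-fold lines.

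The ratios between other chains of a collagen type moved less. In type I, the sum of col1a1a and col1a1b over col1a2 was 3.08 in the mutant and 2.96 in wild type. In type V, COL5A2 (1 of 2) over col5a1 was 1.99 in the mutant and 1.96 in wild type. In type XI, col11a1a and col11a1b together over col11a2 gave 3.07 in the mutant and 2.91 in wild type. Among the gene copies, the ratio of col17a1a to col17a1b was 9.47 in the mutant and 9.55 in wild type. Other ratios lay further apart than these. That of col12a1 to COL12A1 was 5.41 in the mutant and 4.52 in wild type. That of col4a2 to col4a1 was 1.52 in the mutant and 1.77 in wild type. All ratios use FPKM within a pool and have no error estimate.

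**Figure D3:**
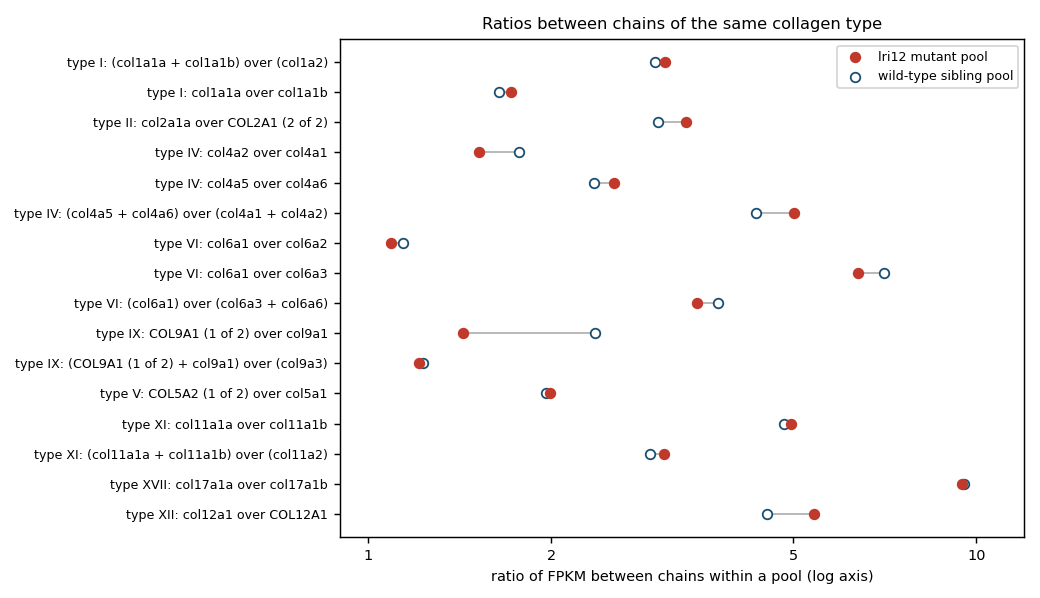
Ratio of FPKM between chains or gene copies of the same collagen type within the mutant pool (filled red) and the wild-type pool (open blue), on a log axis. Most pairs of points lie close together; the widest gap is between the duplicated alpha-1 genes of type IX, at 1.43 in the mutant and 2.36 in wild type.

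The FACIT genes outside type IX were within 1.2-fold apart from 1 locus, with COL21A1 (1 of 2) furthest above 0 among them, at 0.19. In this class 11 of 12 loci entered, with a median of -0.02, 1 higher and 1 lower by 1.2-fold. The lower one was COL14A1 (2 of 2) (chromosome 19, 6893 to 335446), a gene of collagen XIV, which binds fibrils in dermis and tendon. It stood at 13.2 FPKM in the mutant and 16.3 FPKM in wild type, a difference of -0.28 that came inside 1.2-fold, at -0.22, with 5 FPKM added in place of 1. Its span is shared with 18 other gene models, and how reads were assigned among them was not tested. Collagen XII, also a fibril-binding collagen of skin and tendon, is represented by a pair of loci that went in opposite directions by little. The abundant col12a1 stood at 20.6 FPKM in the mutant and 19.3 FPKM in wild type, and COL12A1 at 3.81 FPKM in the mutant and 4.28 FPKM in wild type. The locus listed as COL19A1 on chromosome 19 was among the 10 highest collagens, at 96.0 FPKM in the mutant and 98.5 FPKM in wild type.

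Type IV chains form the network of basement membranes, and 4 of 6 loci entered, all 4 within 1.2-fold, with a median of 0.06 and 3 above 0. Their sum was 81.1 FPKM in the mutant and 75.5 FPKM in wild type. The most abundant chain, col4a5 (chromosome 7, 52558391 to 52649610), stood at 48.5 FPKM in the mutant and 43.1 FPKM in wild type, a difference of 0.17. Its neighbour col4a6, separated by 743 bases, stood at 19.1 FPKM in the mutant and 18.3 FPKM in wild type. The chains col4a1 and col4a2 share a single span on chromosome 9 (8676055 to 8941992) and went in opposite directions. The first stood at 5.35 FPKM in the mutant and 5.10 FPKM in wild type, and the second at 8.14 FPKM in the mutant and 9.02 FPKM in wild type. The sources used here do not say how reads were assigned within this shared span. The chains col4a3 and col4a4, known from kidney and inner ear basement membranes in mammals, were under 0.5 FPKM in both pools.

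Multiplexins, which sit beneath epithelia and vessels, held 2 of the 5 lower collagens. COL15A1 (2 of 3) (chromosome 24, 91948 to 93590) stood at 1.97 FPKM in the mutant and 3.06 FPKM in wild type, 1.37-fold lower. COL15A1 (3 of 3) (chromosome 24, 98692 to 102220) stood at 2.49 FPKM in the mutant and 3.38 FPKM in wild type, 1.26-fold lower. With 5 FPKM added in place of 1 they came inside 1.2-fold, at -0.21 and -0.16. Just beyond lies COL23A1 (4 of 4) (103130 to 104804), at 3.38 FPKM in the mutant and 4.20 FPKM in wild type, a difference of -0.25. These 3 short loci lie within 12857 bases. In the RefSeq table a single gene, col15a1a, stands at the corresponding place, shortly after dselb, so the 3 values may not be independent. The fuller genes of the class did not show the difference. The gene col15a1b stood at 9.06 FPKM in the mutant and 9.81 FPKM in wild type. The gene col18a1, whose product is the source of endostatin, stood at 36.0 FPKM in the mutant and 33.0 FPKM in wild type.

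Short-chain network collagens went in both directions. Type X collagen, known in mammals from hypertrophic cartilage and in zebrafish also from bone-forming cells, was lower. Its gene col10a1 (chromosome 17, 15383315 to 15388101) stood at 98.9 FPKM in the mutant and 130.1 FPKM in wild type, 1.31-fold lower, and 423 of the 10969 genes that averaged 5 FPKM or more were at least as far below 0. A model of EDA (2 of 2) has the same span. Type VIII collagen forms hexagonal lattices in the eye and vessel walls, and in zebrafish col8a1a is needed for the notochord sheath. The gene col8a1a (chromosome 9, 31123934 to 31137592) stood at 10.3 FPKM in the mutant and 7.24 FPKM in wild type, 1.37-fold higher, with 160 genes at least as far above 0. Its relatives differed less: COL8A2 stood at 7.93 FPKM in the mutant and 7.85 FPKM in wild type, and col8a1b at 1.97 FPKM in the mutant and 1.75 FPKM in wild type.

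All 4 genes of type VI collagen, which forms beaded filaments around muscle and fibroblasts, stood slightly above 0, between 0.03 and 0.14, with none past 1.2-fold. The gene col6a1 stood at 39.0 FPKM in the mutant and 38.2 FPKM in wild type, and its neighbour col6a2 at 35.8 FPKM in the mutant and 33.4 FPKM in wild type. The gene col6a3 stood at 6.11 FPKM in the mutant and 5.44 FPKM in wild type, and col6a6 at 5.10 FPKM in the mutant and 4.74 FPKM in wild type. The assembled filament is built from alpha-1, alpha-2 and alpha-3-like chains, and col6a1 over the sum of col6a3 and col6a6 was 3.47 in the mutant and 3.76 in wild type.

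Transmembrane collagens included the lowest member of the family. The locus that joins COL25A1 (1 of 2) and COL25A1 (2 of 2) (chromosome 7, 60361813 to 60552454) belongs to a collagen known in mice for a part in motor nerve growth into muscle. It stood at 1.94 FPKM in the mutant and 4.36 FPKM in wild type, 1.82-fold lower. With 0.1 FPKM added in place of 1 it was past 2-fold, at -1.13. An unnamed model with the same span went the other way, at 1.43 FPKM in the mutant and 0.785 FPKM in wild type. How the authors' program assigned reads between these models was not tested. Collagen XVII is the hemidesmosome collagen of basal skin cells. Its gene col17a1a stood at 57.1 FPKM in the mutant and 58.1 FPKM in wild type, and col17a1b at 6.03 FPKM in the mutant and 6.08 FPKM in wild type. The locus joining COL23A1 (3 of 4) and si:dkey-27a13.3 stood at 10.9 FPKM in the mutant and 9.86 FPKM in wild type. The other type XXIII loci, COL13A1 and the type XXVIII gene col28a1 were all within 1.2-fold, and COL28A1 (2 of 2) was under 1 FPKM. The anchoring fibril gene COL7A1 was low, at 1.04 FPKM in the mutant and 1.196 FPKM in wild type. The locus that joins col7a1l with 4 clone-named models stood at 3.66 FPKM in the mutant and 2.93 FPKM in wild type, a difference of 0.25, just short of 1.2-fold.

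**Figure D4:**
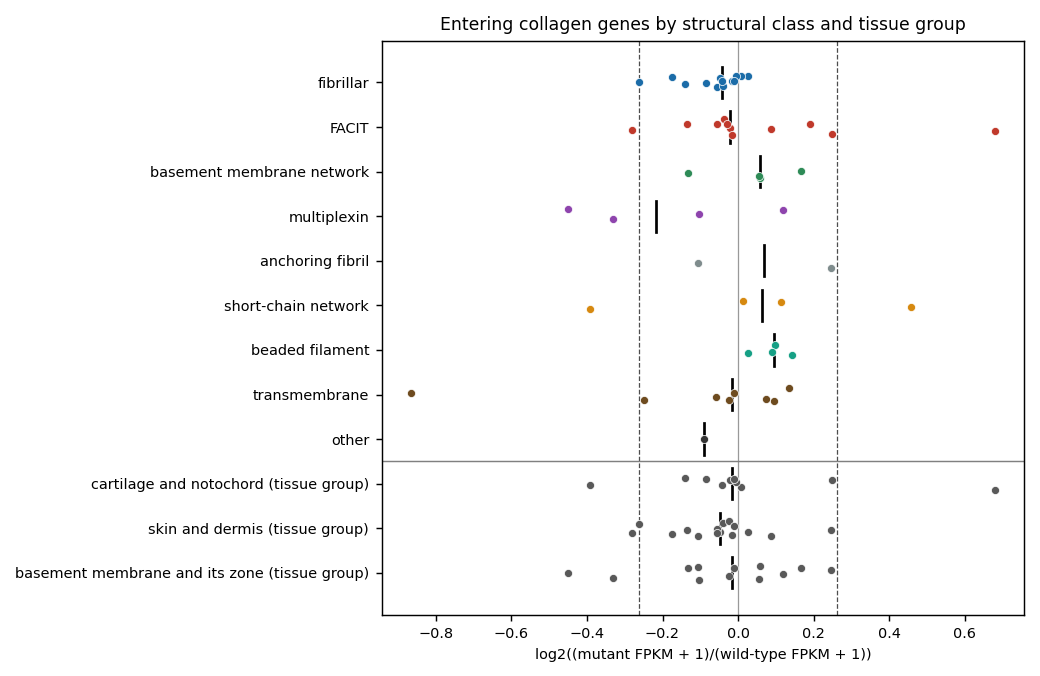
Difference of each entering collagen gene (points, log2 scale with 1 FPKM added, mutant over wild type) by structural class and, below the line, by tissue group, where a gene may appear more than once. Black bars are medians and dashed lines 1.2-fold; the fibrillar points are all inside the lines, with a median of -0.04, while multiplexin, short-chain, FACIT and transmembrane genes reach past them.

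Grouped by tissue, cartilage and skin collagens had medians close to 0. The group for cartilage and notochord (types II, IX, X, XI and XXVII) had a median of -0.02 over 10 entering genes, with 1 higher (col9a1) and 1 lower (col10a1). Its sum was 824 FPKM in the mutant and 819.6 FPKM in wild type. Markers of chondrocytes summed to 549 FPKM in the mutant and 524 FPKM in wild type over 9 of 12 listed genes that entered. Of these, 1 was at least 1.2-fold higher and 0 lower. UCMA (1 of 2), listed in capitals and so outside the 9, stood at 93.55 FPKM in the mutant and 74.74 FPKM in wild type. With it 2 of 10 were higher and 0 lower. Markers of the notochord summed to 199 FPKM in the mutant and 176 FPKM in wild type over 7 of 12. All 7 lay above 0, with a median of 0.16, and 1 was at least 1.2-fold higher and 0 lower. The higher one was the brachyury gene ntla, 1.48-fold, at 3.13 FPKM in the mutant and 1.78 FPKM in wild type. The most abundant, epyc, stood at 89.9 FPKM in the mutant and 80.4 FPKM in wild type, a difference of 0.16. With ENTPD5 (1 of 2), listed in capitals and at -0.006, 1 of 8 notochord markers was higher and 0 lower. The part of these markers in the differences of col9a1, col10a1 and col8a1a was not tested. Osteoblast markers summed to 17.4 FPKM in the mutant and 22.7 FPKM in wild type over 5 of 9 listed genes, with 1 higher and 1 lower by 1.2-fold. Most of that gap came from the osteopontin gene, listed as zgc:111821, at 3.998 FPKM in the mutant and 8.53 FPKM in wild type. The higher one was the locus joining mgp and si:ch1073-504d15.2, which matched the list through a RefSeq synonym of bglap, at 0.31, and sp7, the osteoblast regulator, lay at 0.02. The most abundant of the 5, the locus joining phospho1 and znf652, stood at 9.13 FPKM in the mutant and 10.35 FPKM in wild type, a difference of -0.16. Osteoblast genes listed in capitals were outside the 5. IFITM5 lay at -0.24, PANX3 at 0.02 and ENTPD5 (1 of 2) at -0.01. With these loci the median was -0.050 over 8 genes, against -0.095 over the 5, still with 1 higher and 1 lower.

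The group for skin and dermis (types I, III, V, VII, XII, XIV and XVII) had a median of -0.05 over 15 entering genes. In it 1 gene, COL14A1 (2 of 2), was lower by 1.2-fold. Below 0 lay 12 of the 15, beside 9084 of all 18664 entering genes. The type I and V genes of this group are also fibrillar collagens, so this count overlaps with that of the fibrillar class. The sum of the group was 967 FPKM in the mutant and 982 FPKM in wild type. No locus of type III was found by the symbol rule. Of 11 basal epidermis markers 8 entered, 3 of them higher and 1 lower by 1.2-fold, and 5 of 8 below 0, with a median of -0.03. Their sums were 9181 FPKM in the mutant and 7636 FPKM in wild type, most of it krt4, known as a keratin of the superficial skin layer in zebrafish, at 5608 FPKM in the mutant and 4384 FPKM in wild type. The higher markers besides krt4 were si:dkeyp-113d7.4, matched to krtt1c19e, at 0.31, and cldni at 0.27. The 5 below 0 were tp63, itgb4 and itga6b at -0.06, -0.15 and -0.04, krt5 at -0.01 and krt15 at -0.26. The locus DST, listed in capitals and so outside the 8, lay further from 0 than any of them. It stood at 27.4 FPKM in the mutant and 39.9 FPKM in wild type, a difference of -0.53. With DST, 3 of 9 basal epidermis markers were higher and 2 lower by 1.2-fold. Of 15 fibroblast and tenocyte markers 12 entered, with 3 higher and 1 lower by 1.2-fold, beside 5.9% and 7.39% of all genes. Above 0 lay 11 of the 12, beside 9580 of all 18664 entering genes, with a median of 0.16. Their sums were 517 FPKM in the mutant and 436 FPKM in wild type. With loci listed in capitals, 3 of 16 were higher and 1 lower, 13 lay above 0 and the median was 0.13. The most abundant of them, the periostin gene postn, stood at 288 FPKM in the mutant and 238 FPKM in wild type. The 7 entering markers of the fin fold, among them the actinodin gene and4 at 505 FPKM in the mutant and 531 FPKM in wild type, were all within 1.2-fold. The group for basement membrane and its zone (types IV, VII, XV, XVII and XVIII), which shares members with the skin group, had a median of -0.02 over 12 genes, with 2 lower, both COL15A1 loci on chromosome 24. None of the entering or matched markers of these tissues was listed at 0 in either pool.

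Among the marker lists used here, that of the exocrine pancreas had the median furthest from 0. All 14 that entered were at least 1.2-fold lower, with a median of -1.196 and sums of 4711 FPKM in the mutant and 10785 FPKM in wild type. The most abundant, the locus joining ctrb1 and zgc:136461, stood at 1553.6 FPKM in the mutant and 3386.5 FPKM in wild type. The fast muscle markers had a median of 0.05 over 10 genes. Of these 1 was higher and 1 lower by 1.2-fold, tnnt3a at 0.65 and myhz1.1 at -0.39. The most abundant, pvalb2, stood at 19476.8 FPKM in the mutant and 18575.6 FPKM in wild type. Whether differences in organ makeup bear on the collagens was not tested. Absolute depth is unknown. Of 1285 loci averaging under 0.1 FPKM, 213 had a log2 ratio within 0.01 of -0.15, the value most often met. If these hold the same number of reads in each library, the mutant library was 1.11 times as deep.

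Of the 122 entering genes that make, anchor, bind or degrade collagen, 87 lay above 0 and 35 below, 71.3% above, against 51.3% of all genes. Of these pathway genes 12 were higher by 1.2-fold or more, 7 were lower and 103 lay between, with a median of 0.08. Among all genes 5.9% were higher and 7.39% lower by that size. Enzymes that hydroxylate or glycosylate collagen chains had a median of 0.17 over 9 genes, with 2 higher and 0 lower. The lysyl hydroxylase gene plod1a stood at 10.9 FPKM in the mutant and 7.87 FPKM in wild type, 1.34-fold higher. The prolyl hydroxylase subunit gene p4ha1b stood at 4.43 FPKM in the mutant and 3.27 FPKM in wild type, 1.27-fold higher. The lowest of this list were plod3 at -0.15 and p4ha1a at -0.05.

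Chaperones and folding factors had a median of 0.15 over 12 genes, with 2 higher and 0 lower. The peptidyl-prolyl isomerase gene fkbp14 was 1.26-fold higher, at 8.78 FPKM in the mutant and 6.74 FPKM in wild type. The general chaperone gene hspa5 was 1.25-fold higher, at 65.3 FPKM in the mutant and 52.2 FPKM in wild type. The collagen-specific chaperone gene listed as hsp47, matched to serpinh1b, stood at 8.44 FPKM in the mutant and 6.99 FPKM in wild type, a difference of 0.24. Another locus of this chaperone joins ACER3 and SERPINH1 (2 of 2) and was not matched to the list. This locus was more abundant, at 21.3 FPKM in the mutant and 21.02 FPKM in wild type. FKBP10 (2 of 2), also listed in capitals and not matched, stood at 4.79 FPKM in the mutant and 3.73 FPKM in wild type, a difference of 0.29. With both loci, 3 of 14 were higher and 0 lower. The most abundant of the list, sparc, which encodes a collagen-binding glycoprotein, stood at 782 FPKM in the mutant and 705 FPKM in wild type. The lowest, pdia3 and ppib, lay at -0.13 and -0.04. Genes for export of procollagen from the endoplasmic reticulum had a median of 0.01 over 13 genes, all within 1.2-fold, from sec23b at 0.19 and the gene listed as sar1a at 0.18 to sec24d at -0.14 and the locus of mia2 at -0.17. The most abundant of them was tfg, at 55.5 FPKM in the mutant and 50.7 FPKM in wild type.

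Outside the cell, the list of propeptide proteinases had 3 lower and 0 higher members of 8, and a median of -0.05. All 3 were meprins, proteases that are also abundant in the gut brush border. The gene mep1a.2 stood at 5.06 FPKM in the mutant and 13.26 FPKM in wild type, mep1a.1 at 8.20 FPKM in the mutant and 17.7 FPKM in wild type, and mep1b at 0.641 FPKM in the mutant and 2.54 FPKM in wild type. The procollagen C-proteinase gene bmp1a stood at 10.4 FPKM in the mutant and 10.7 FPKM in wild type. The enhancer genes pcolce2a, at 0.23, and pcolce2b, at 0.10, were the highest of the 8, and mep1a.1 had the highest mean level. Procollagen N-proteinases and enhancers are also in the table in capitals and were not among the 8. ADAMTS14 stood at 3.03 FPKM in the mutant and 3.02 FPKM in wild type, ADAMTS3 at 1.17 FPKM in the mutant and 1.29 FPKM in wild type, and PCOLCE (1 of 2) at 37.0 FPKM in the mutant and 29.7 FPKM in wild type, a difference of 0.31. PCOLCE (2 of 2) lay at -0.14, and with these 4 loci 1 of 12 was higher and 3 were lower. Lysyl oxidases, which cross-link fibrils, had a median of 0.08 over 8 genes, with loxl5b 1.31-fold higher and loxl4 1.24-fold lower. The founding member lox lay at -0.07, loxl3a at 0.16, and the most abundant, loxl1, at 9.86 FPKM in the mutant and 9.19 FPKM in wild type. Collagen receptors, integrins and discoidin domain receptors, had a median of 0.07 over 8 genes, all within 1.2-fold, from ddr2l at 0.19 and ddr2b at 0.16 to itgb1a at -0.01 and itga10 at -0.18. The locus joining itgb1b.1 and itgb1b.2 was the most abundant, at 41.8 FPKM in the mutant and 39.7 FPKM in wild type.

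Of 7 collagen-degrading proteinases 3 were higher and 1 lower, with a median of 0.19, or 0.09 with both MMP15 loci, which are listed in capitals. The gelatinase gene mmp9 stood at 8.57 FPKM in the mutant and 5.34 FPKM in wild type, 1.51-fold higher. The gelatinase gene mmp2 stood at 84.2 FPKM in the mutant and 64.7 FPKM in wild type, 1.30-fold higher, and the collagenase gene mmp13a at 4.01 FPKM in the mutant and 3.05 FPKM in wild type, 1.24-fold higher. The lysosomal cathepsin gene ctsl.1 was 2.53-fold lower, at 44.7 FPKM in the mutant and 114 FPKM in wild type. The next lowest, mmp14a, lay at 0.07.

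Partners of the fibrils held 4 higher and 1 lower of 21, with a median of 0.07. The matrilin genes matn3a and matn3b encode cartilage proteins that bind type IX collagen in mammals. The first stood at 94.8 FPKM in the mutant and 61.1 FPKM in wild type, 1.54-fold higher, and the second at 16.8 FPKM in the mutant and 13.26 FPKM in wild type, 1.25-fold higher. Among other cartilage matrix genes, matn1 stood at 182 FPKM in the mutant and 184 FPKM in wild type, the differences of hapln1a and matn4 were 0.14 and 0.12, and those of acana and acanb -0.15 and -0.21. The lumican gene lum, a fibril-binding proteoglycan, was 1.28-fold higher at 61.2 FPKM in the mutant and 47.6 FPKM in wild type, and the dermatopontin gene dpt 1.33-fold lower at 1.56 FPKM in the mutant and 2.40 FPKM in wild type. The periostin gene postn was 1.21-fold higher. Another periostin locus, POSTN (2 of 2), listed in capitals and so outside the 21, lay at -0.09. With loci listed in capitals, 4 of 27 fibril partners were higher and 1 lower. Other basement membrane components had a median of 0.07 over 20 genes, with 0 higher and 1 lower, the nidogen gene nid1a, at 22.5 FPKM in the mutant and 27.3 FPKM in wild type. It was also the most abundant of them. Another nidogen locus, NID1 (2 of 2), listed in capitals and so outside the 20, went the other way. That locus stood at 10.95 FPKM in the mutant and 9.49 FPKM in wild type, a difference of 0.19. With loci listed in capitals, 0 of 23 were higher and 1 was lower. The laminin gene lamb2 lay at 0.18, the dystroglycan gene dag1 at 0.14 and the laminin gene lama2 at -0.22. Transcription factors of collagen-producing cells had a median of 0.07 over 16 genes, all within 1.2-fold, from twist1a at 0.24 and foxc1b at 0.18 to runx2b at -0.10 and sp1 at -0.22. The cartilage regulator sox9a was the most abundant, at 18.2 FPKM in the mutant and 16.9 FPKM in wild type.

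**Figure D5:**
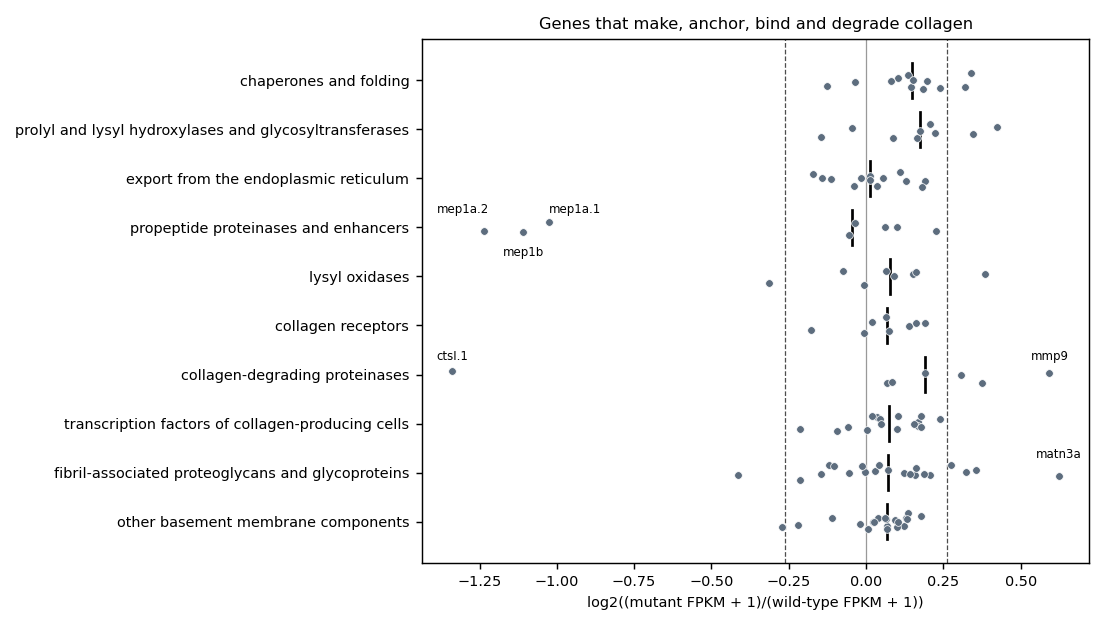
Difference of each entering gene (points, log2 scale with 1 FPKM added, mutant over wild type) in the 10 lists of genes that modify, export, cleave, cross-link, bind or degrade collagen or lie beside it, with medians as black bars and 1.2-fold as dashed lines. Named points lie beyond 0.5 on this scale: the meprins and ctsl.1 below 0, mmp9 and matn3a above.

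In the authors' deposited table, none of the 55 collagen loci that their program tested had a q under 0.05, a mark that 0.348% of all tested loci reached, and the smallest q of a collagen locus there was 0.999. By the unadjusted p of the authors' deposited table, 2 of the 55 were under 0.05, beside 2.59% of all tested loci. These were col9a1 with a p of 0.0127 and col8a1a with a p of 0.0437 in the authors' deposited table. Those values come from 1 pool against 1 pool and do not measure variation between clutches.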

How the data were processed

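RNA of 1 pool per genotype was sequenced; the deposited table has a row for each of 40114 loci with 1 value per pool. Per the file headers it is a Cuffdiff comparison of wt with mut, so the authors' values were taken as FPKM, a unit no label states. Per the submitters' processing notes, CASAVA and Bowtie were used with build Zv9, and nothing is stated of the annotation, of strand or of reads with several matches. Quoted p-values and q-values were made by the authors. The deposited log2 ratios were not used, since a spreadsheet had turned some cells into text.

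Values of each symbol were summed over its loci; loci without symbol (8509) and with failed estimates (19) were left out. Coordinates are as deposited. A pseudocount of 1 FPKM and a minimum average of 1 FPKM were used, with pandas 2.3.3, and the calculation was tested on simulated data. Classes, lists and fold limits were chosen with earlier results of these data known. Named genes were the entering collagens, with full values for the 3 most abundant per group and the 6 furthest each way averaging 5 FPKM or more, the 2 highest, 2 lowest and most abundant of each pathway list and the most abundant of each marker list; others, such as ntla, zgc:111821, sp7, hsp47, the basal skin genes, loci in capitals of the lists, bmp1a, mep1a.1, mmp13a and the cartilage genes beside matn3a, were named after their values were seen. Of 277 list entries 192 matched as written, 19 through RefSeq synonyms and 66 by neither. Of the last, 39 have loci listed in capitals under the same gene name, which cannot be assigned to a copy by name and were added only as an alternative. No nucleotide or protein sequences were used here. The closing section gives 8 alternatives listed at the start and 3 chosen after seeing the data (col9a2, ceramide transfer protein loci or loci in capitals included).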

Additional observations from a re-analysis of the deposited data

How the results depend on the processing

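No paired analysis was possible because each genotype has 1 pool. Counts were taken as unchanged within 1.5 times and medians within 0.1. The medians of the collagens and of the fibrillar, type IV, cartilage and skin groups stayed within 0.1 under all 10 alternatives run on them. That limit is wider than the reported medians, which ran from -0.047 for skin to 0.057 for type IV, so it passes a change of sign. The collagen median changed sign, from -0.017 to 0.007 with symbols in lower case only, and the group medians kept theirs. Some alternatives leave a group's genes as they are and cannot move its median, such as col9a2 for the fibrillar group, at -0.043 either way. With a pseudocount of 0.1, 4 collagens were at least 1.2-fold higher, against 2 as reported, and 1, the COL25A1 locus, passed 2-fold, against 0. The share of all genes at least 1.2-fold higher moved too, to 8.54% with a pseudocount of 0.1, against 5.9%. Collagens at least 1.2-fold lower numbered 5 as reported, 2 with a pseudocount of 5, 2 when genes averaging under 5 FPKM were left out and 1 with symbols in lower case only. With a pseudocount of 5, 2.37% of all genes were higher and 3.55% lower, against 5.9% and 7.39%, and without genes averaging under 5 FPKM 7.35% were lower. Pathway genes at least 1.2-fold higher numbered 12 as reported and 7 with a pseudocount of 5. Those lower numbered 7 as reported, 4 with a pseudocount of 5 and 4 without genes averaging under 5 FPKM. With loci listed in capitals added to the lists, 14 of 145 pathway genes were higher and 7 lower. A pseudocount acts most on low genes, and the other settings leave fewer genes. Short of 1.2-fold as reported and past it with a pseudocount of 0.1 were COL21A1 (1 of 2) at 0.30, the col7a1l locus at 0.31, COL23A1 (4 of 4) at -0.31 and COL5A2 (2 of 2) at -0.42, the last also when rescaled to a median of 0, at -0.27. The 4 settings run on single genes could not reverse the direction of a collagen gene past 1.2-fold. A pseudocount keeps the sign, the rescaling shifts each value by only 0.004, and each collagen symbol is listed once.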

Other observations

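Symbols of some collagen loci do not match the gene at the corresponding place in the RefSeq table of GRCz12tu, by order of neighbours only. The locus listed as COL19A1 on chromosome 19 lies beside FAM135B, and in the RefSeq table the collagen next to fam135b, apart from 1 unnamed gene, is col22a1 on chromosome 19, a collagen known from muscle-tendon junctions. The locus joining COL23A1 (3 of 4) and si:dkey-27a13.3 lies between col9a2 and BAI2, where the RefSeq table has col16a1 between col9a2 and adgrb2. Collagen types XVI and XXII appear in no symbol that the rule found. Sequence was not used to compare these loci. Classes and their counts follow the deposited symbols, so COL23A1 (3 of 4) and COL23A1 (4 of 4) were counted as transmembrane collagens. The gene si:dkey-211m23.2, a synonym of col28a2a in the RefSeq table and not found by the symbol rule, stood at 11.7 FPKM in the mutant and 9.28 FPKM in wild type, a difference of 0.30.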
